A study of Mus musculus with 32 samples.

Results

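Outer hair cell ribosomes were pulled down from cochleae of mice that had received no noise, and the RNA bound to them was compared with RNA of the whole cochlea. The pull-down relied on RiboTag. Once Cre has acted on this allele, a cell makes Rpl22, a protein of the large ribosomal subunit, with an HA epitope, and an HA antibody then collects the ribosomes of that cell with the mRNA they carry. Of the 32 libraries of the series, the 6 used here are the 3 HA immunoprecipitates (IPs) and the 3 matching whole-cochlea inputs of the strain labelled Prestin that had no noise. The libraries were chosen by those labels, with earlier results of these data known. All genes of their tables entered the analysis, and those past a filter on low values were tested.

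All 6 libraries came from mice of 10 weeks with the genotype PrestinCre/+;RiboTagHA/+, which the design text writes as PrestinCreERT2;RiboTag;CBA. Cre is driven by Prestin (Slc26a5), and the CreERT2 form acts only after tamoxifen, whose dose and timing the labels do not give. The inputs came from the same homogenates as the IPs, so they carry the tagged ribosomes too and hold the outer hair cell RNA at its share of the whole cochlea. The 3 homogenates are numbered 1 to 3, and the protocols describe biological triplicates without saying how many animals entered each. For a comparison between strains, 2 IPs and 2 inputs without noise were used from mice of the same age with the genotype Sox2Cre/+;RiboTagHA/+, whose IPs are labelled as enriched for supporting cells.

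Outer hair cells are the sensory cells that amplify sound in the mammalian cochlea. Prestin, a motor protein of the lateral membrane, changes their length with voltage, and a bundle of stereocilia at their apex opens mechanotransduction channels when it is deflected. Efferent fibres act on them through nicotinic receptors made of the subunits encoded by Chrna9 and Chrna10, and the calcium that enters is bound by oncomodulin (Ocm). These cells are a small minority of the cells of the cochlea, which also holds supporting cells, glia, neurons, the stria vascularis, fibrocytes, bone and blood.

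Values are TPM, the length-scaled share of a gene in its library, and each of the 6 libraries sums to 1000000, so sequencing depth is unknown. The IPs listed 16065 to 16152 genes at 1 TPM or more and the inputs 13339 to 13652. By share of TPM, mitochondrially encoded genes made up 4.91% to 8.40% in the IPs and 22.0% to 25.1% in the inputs, pseudogenes 18.3% to 20.1% and 28.8% to 30.3%, and the nuclear RNA Malat1 4.40% to 7.30% and 0.272% to 0.408%. Across genes, log2(TPM + 1) correlated with r from 0.833 to 0.897 among the IPs and from 0.964 to 0.968 among the inputs. IP 1 stood apart. Among the 12321 genes whose IP mean reached 5 TPM, both other IPs were at least 2 times as high as IP 1 for 1440 genes, and IP 1 was at least 2 times as high as both for 532. The same counts were 433 and 197 for IP 2 and 412 and 267 for IP 3. Lists are therefore also given with homogenate 1 left out.

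**Figure D1:**
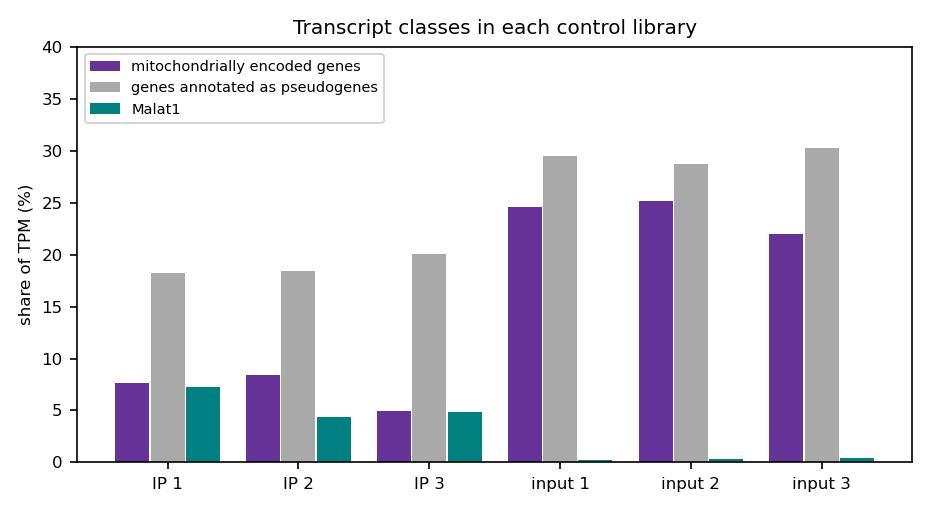
Share of TPM (vertical axis, percent) held by mitochondrially encoded genes, genes annotated as pseudogenes and Malat1 in each of the 6 control libraries (bars, 1 library each). The mitochondrial share is 4.91% to 8.40% in the IPs and 22.0% to 25.1% in the inputs, and Malat1 is above 4% of the TPM in the IPs only.

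The change of a gene is the difference of log2(TPM + 1) between IP and input of the same homogenate, averaged over the 3 homogenates and given ± its standard error, with the Benjamini-Hochberg adjusted p of limma over all genes tested. Of 15290 genes tested, 58.1% rose and 4.53% fell in the IPs at an adjusted p under 0.05. The median gene lay 1.03 higher in the IPs on this log2 scale. Since TPM are shares, a fall in abundant transcripts raises all other genes, and the zero of this scale is not a neutral level. Rescaled without mitochondrially encoded genes and Malat1, the median gene still lay 0.88 higher, and 7662 of 15627 genes rose. The source of the shift was not tested. With median-of-ratios scaling, which places the median gene at 0.00, 15.1% of 15257 genes rose and 20.4% fell. Without the homogenate block 61% rose and 4.89% fell. Without homogenate 1, 9099 of 15727 genes rose and 874 fell. Without homogenate 2, 5864 of 15708 rose and 380 fell, and without homogenate 3, 5051 of 15603 rose and 299 fell. A list count with homogenate 2 or 3 left out is therefore to be read beside this loss of calls over all genes. Every IP was above every input for 65.9% of the genes tested. Each list below is given under both scalings, and changes relative to the median gene are named as such. The lists were chosen with earlier results of these data known, so their counts and ranks are descriptions and not tests. The tests treat the 3 homogenates as replicates. An exact sign-flip test on 3 pairs could not go below p = 0.25 (two-sided). A gene was tested where at least 3 of the 6 libraries reached 1 TPM, so a gene with fewer than 3 inputs at 1 TPM was tested only because of its IPs, which favours a rise. Among the 12292 genes with all 3 inputs at 1 TPM, 55.8% rose and 5.61% fell. The same holds in reverse for falls, and among the 14112 genes with all 3 IPs at 1 TPM 62.9% rose and 4.17% fell.

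The outer hair cell markers were far higher in the pull-down than in the whole cochlea. All 11 markers rose, with a median of 2.78 (1.75 above the median gene), and 9 of 11 also rose with median-of-ratios scaling. Only 5 of the 11, Ocm, Strc, Lbh, Chrna10 and Aqp11, had all 3 inputs at 1 TPM, and the other 6 were tested because of their IPs. Those 5 rose, with a median of 3.66. Slc26a5 (ENSMUSG00000029015, chr5:21810655-21865604 of GRCm38), which encodes prestin, had 25.4, 14.2 and 7.19 TPM in IPs 1, 2 and 3 and 1.08, 0.949 and 0.968 TPM in inputs 1, 2 and 3. The lowest IP was above the highest input, and the IPs themselves spread widely, with IP 1 highest. The change was 2.89 ± 0.37 (adjusted p = 0.0066, limma).

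Ocm (chr5:144019804-144026670), the calcium buffer oncomodulin, was the most abundant marker at 1809, 591 and 1023 TPM in the IPs and 49.1, 51.9 and 63.5 TPM in the inputs. The IP levels were all above the inputs, with IP 1 at the top and IP 2 at the bottom of the 3. Its change of 4.22 ± 0.37 was the largest of the 11 (adjusted p = 0.00509, limma), a ratio of mean TPM of 20.8. Strc (chr2:121363728-121387168), which encodes stereocilin of the links between stereocilia and of their tectorial membrane attachment, had 81.5, 35.2 and 33.3 TPM in the IPs and 2.87, 2.69 and 2.42 TPM in the inputs. IP 1 was more than 2 times each other IP, while the 3 inputs lay close together. The change was 3.68 ± 0.30 (adjusted p = 0.00509, limma).

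The receptor subunits of the efferent synapse were likewise highest in IP 1. Chrna10 was listed at 161, 76.4 and 76.8 TPM in the IPs and 5.44, 6.43 and 9.07 TPM in the inputs, and Chrna9 at 17.7, 4.91 and 6.52 and 0.467, 0.294 and 0.366 TPM. IPs 2 and 3 lay closer together for both genes and IP 1 was more than 2 times as high, with no overlap between IPs and inputs. The changes were 3.66 ± 0.38 for Chrna10 (adjusted p = 0.00556) and 2.78 ± 0.36 for Chrna9 (adjusted p = 0.00692, limma). Kcnn2, the calcium-activated channel coupled to the efferent receptor, was low throughout at 2.24, 1.84 and 1.82 TPM in the IPs and 0.852, 0.879 and 0.686 TPM in the inputs. It changed by 0.72 ± 0.19 (adjusted p = 0.0313, limma), less than the median gene, and its call was lost without homogenate 1, 2 or 3 (adjusted p = 0.0709, 0.109 and 0.138, limma).

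Ikzf2, which encodes the transcription factor helios of maturing outer hair cells, was the 1 marker of the 11 that was lowest in IP 1, at 3.65, 8 and 5.86 TPM in the IPs against 0.455, 0.612 and 0.577 TPM in the inputs. Its change was 2.09 ± 0.25. Lbh, a transcription cofactor, had 90.2, 70.2 and 71.6 TPM in the IPs and 19.8, 18.9 and 19.4 TPM in the inputs, a change of 1.93 ± 0.16, with little spread in either group. Aqp11, an aquaporin, changed by 1.96 ± 0.29 and Lmod3, a leiomodin that binds actin, by 2.49 ± 0.24. The other 10 markers were highest in IP 1, where 43.2% of all genes tested were highest in IP 1. The 11 markers together held 2277, 848 and 1269 TPM in IPs 1, 2 and 3 and 89.8, 93.0 and 105.5 TPM in the inputs. The median of the markers was 3.20, 2.48 and 2.17 in homogenates 1, 2 and 3 taken singly, and 2.33 with homogenate 1 left out, where 10 of 11 rose. Aqp11 and Kcnn2 did not pass the test with median-of-ratios scaling (adjusted p = 0.0923 and 0.906, limma). In bulk RNA, a larger number of tagged cells and more RNA per cell cannot be told apart.

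**Figure D2:**
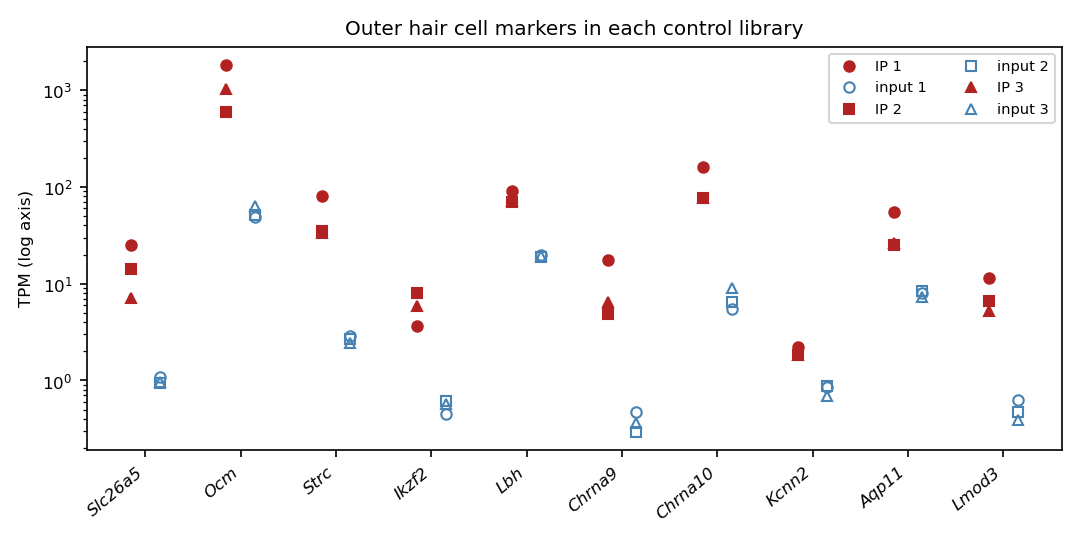
TPM (vertical log axis) of 10 of the 11 outer hair cell markers in each IP (filled red) and each input (open blue), with the homogenate given by the shape. Every IP lies above every input for the 10 genes plotted, and IP 1 is the highest IP for all of them but Ikzf2.

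The start regions of the markers are shown because these genes were high together in the same 3 libraries. RefSeq promoters (GRCm38.p6, 250 bases before to 50 after the start) matched 7 of the 11 markers, and in 4 of those 7 the RefSeq start lay within 115 bases of the GENCODE M21 start of the gene. Those 4 are printed 5′ to 3′ on the strand of the gene. Matches to CAGNTG, a form of the E-box, or CANCTG on the other strand, are in capitals. Other E-box forms were not searched. Slc26a5 lies at chr5:21865555-21865854 on the minus strand, Lbh at chr17:72918055-72918354 on the plus strand, Chrna10 at chr7:102116664-102116963 and Aqp11 at chr7:97738198-97738497, both on the minus strand.
Slc26a5: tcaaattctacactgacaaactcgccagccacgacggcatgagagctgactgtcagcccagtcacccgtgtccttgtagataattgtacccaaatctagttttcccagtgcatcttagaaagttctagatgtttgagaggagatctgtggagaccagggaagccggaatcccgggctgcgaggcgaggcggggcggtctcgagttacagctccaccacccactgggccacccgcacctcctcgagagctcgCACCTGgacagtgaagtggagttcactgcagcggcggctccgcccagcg
Lbh: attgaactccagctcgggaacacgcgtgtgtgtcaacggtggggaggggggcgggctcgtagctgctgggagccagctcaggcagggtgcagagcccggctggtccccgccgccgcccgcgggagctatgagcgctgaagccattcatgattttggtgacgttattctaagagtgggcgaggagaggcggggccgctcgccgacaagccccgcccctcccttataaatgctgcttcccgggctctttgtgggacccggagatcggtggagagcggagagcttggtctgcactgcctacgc
Chrna10: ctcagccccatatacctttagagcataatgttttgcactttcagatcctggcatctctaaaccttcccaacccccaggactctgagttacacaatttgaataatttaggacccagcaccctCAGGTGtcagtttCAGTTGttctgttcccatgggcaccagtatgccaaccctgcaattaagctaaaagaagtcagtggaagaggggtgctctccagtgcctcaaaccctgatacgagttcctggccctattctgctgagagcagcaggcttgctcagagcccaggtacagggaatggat
Aqp11: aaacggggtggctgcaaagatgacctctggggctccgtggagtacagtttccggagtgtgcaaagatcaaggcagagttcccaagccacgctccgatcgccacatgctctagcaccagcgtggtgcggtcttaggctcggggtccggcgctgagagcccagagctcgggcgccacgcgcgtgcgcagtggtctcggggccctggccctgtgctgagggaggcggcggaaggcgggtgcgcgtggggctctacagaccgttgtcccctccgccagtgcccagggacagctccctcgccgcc
This E-box form was found in 5 of the 7 marker promoters, against 44.9% of 13281 promoters of genes tested and 51.4% of all 32851 promoters. Slc26a5 held 1 match and Chrna10 held 2, and Lbh and Aqp11 held none of this form. The other marker promoters with a match were those of Strc, Ocm and Chrna9, which are not printed. Their RefSeq starts lay 6228, 23939 and 32203 bases from the GENCODE M21 start. The letters ATTAAT, the core of sites of POU4 factors, and GTTGCC, a half-site of RFX factors, were in 0 of the 7 on either strand, and in 2.10% and 12.6% of the promoters of genes tested. A match of letters is a description of the sequence and not a measured site.

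Slc26a5 belongs to a family of anion transporters with 11 members in these lists, 8 of which passed the filter of 1 TPM in at least 3 libraries. Of those 8, 7 rose and none fell (median 1.67), 8 rose without homogenate 1, and 3 rose with median-of-ratios scaling. Of the 5 with all 3 inputs at 1 TPM, 4 rose. Slc26a3 was listed at 0 in all 6 libraries, and Slc26a8 and Slc26a9 did not pass the filter. The sulfate transporter Slc26a1 had 14.7, 15.8 and 8.93 TPM in the IPs and 0.825, 2.23 and 0.925 TPM in the inputs. Slc26a11 had 13.3, 13.1 and 11 and 1.43, 1.54 and 1.70 TPM. Neither overlapped between IPs and inputs, and they changed by 2.62 ± 0.25 (adjusted p = 0.0053) and 2.39 ± 0.21 (adjusted p = 0.00509, limma). Unlike Slc26a5, they were not highest in IP 1 by a wide margin. Slc26a2, a sulfate transporter of cartilage, changed by 1.44 ± 0.19, and Slc26a4, which encodes pendrin of other cochlear epithelia, had 37.8, 73.4 and 67.7 TPM in the IPs and 52.1, 46.3 and 47.0 TPM in the inputs and did not pass (adjusted p = 0.486, limma). Among the 8, Slc26a4 was the most abundant family member in the inputs and Slc26a5 was among the lowest there.

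The genes of mechanotransduction and of the tip link, the filament that pulls on the channel, mostly rose. Of 13 members 9 were tested, and 8 of the 9 rose and none fell (median 1.87, or 1.57 with 8 of 9 rising without homogenate 1). With median-of-ratios scaling 4 rose. Of the 7 with all 3 inputs at 1 TPM, 6 rose (median 1.29). Lhfpl5, a subunit of the transduction complex, had 98.0, 31.5 and 41.6 TPM in the IPs and 6.21, 3.54 and 5.11 TPM in the inputs, and Tomt, which is needed to bring the channel to the bundle, had 39.0, 26.8 and 26.7 and 3.30, 2.66 and 3.99 TPM. Both were highest in IP 1 and neither overlapped with the inputs. They changed by 3.14 ± 0.27 (adjusted p = 0.00509) and 2.87 ± 0.23 (adjusted p = 0.00509, limma).

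The pore-forming subunit Tmc1 was listed at 6.08, 2.92 and 2.56 TPM in the IPs and 0.278, 0.288 and 0.224 TPM in the inputs, a change of 1.87 ± 0.28 (adjusted p = 0.00821, limma). Its relative Tmc2, used early in hair cell development, was listed at 0 in all 6 libraries. Myo7a, the myosin of the upper tip link end, changed by 2.28 ± 0.33 and Ush1c, which encodes the scaffold harmonin, by 2.02 ± 0.36. Tmie, Cib2 and Calml4, further parts of the channel complex and its motor, rose by 1.29, 1.28 and 1.28, close to the median gene, and the calls of Cib2 and Calml4 were lost without homogenate 3 (adjusted p = 0.0799 and 0.0662, limma). Ush1g, the scaffold protein sans, had 2.53, 5.03 and 13.4 TPM in the IPs and 2.17, 3.13 and 2.43 TPM in the inputs, and the groups overlapped (adjusted p = 0.133, limma). The tip link proteins themselves did not pass the filter. Cdh23 had 1.59, 0.791 and 0.764 TPM in the IPs and 0.0855, 0.143 and 0.0746 TPM in the inputs, and Pcdh15 0.269, 0.195 and 0.139 and 0.0308, 0.0442 and 0.0243 TPM. Both are listed higher in each IP than in each input, at levels where TPM + 1 hides most of a change. Cib3 was at or below 0.452 TPM in every library.

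Most scaffold and motor proteins of the hair bundle rose too. Of 29 members 20 were tested, 16 of them rose and none fell (median 1.5), and 15 of 20 rose without homogenate 1. With median-of-ratios scaling 5 rose and 1, Gnai3, fell. Of the 13 with all 3 inputs at 1 TPM, 10 rose. Espn, the actin bundler espin, had 18.4, 14.8 and 16.4 TPM in the IPs and 2.39, 2.50 and 1.89 TPM in the inputs, with 3 IPs of similar height, and changed by 2.43 ± 0.20 (adjusted p = 0.00509, limma). Myo15, the motor that carries proteins to stereocilia tips, had 8.17, 5.28 and 5.66 and 0.287, 0.755 and 0.484 TPM and changed by 2.28 ± 0.27. Pjvk, which encodes pejvakin, was the only one of these 3 to be highest in IP 3, at 6.81, 7.34 and 13.3 TPM in the IPs and 0.957, 1.12 and 1.48 TPM in the inputs (change 2.17 ± 0.23). Eps8l2, an actin-binding protein of the tips, had 69.5, 60.3 and 47.7 and 19.1, 24.5 and 17.4 TPM and changed by 1.5 ± 0.19, or 0.47 relative to the median gene. The very long transcripts Adgrv1, Xirp2, Myo3a and Myo3b were among the 9 members under the filter. The E-box form CAGNTG was in 10 of 13 promoters of the mechanotransduction list and 13 of 26 of the bundle list, on either strand.

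Of the 12 transcription factors of hair cells, 11 were tested, 10 rose and none fell (median 2.03), 10 rose without homogenate 1, and 6 rose with median-of-ratios scaling. The 6 with all 3 inputs at 1 TPM rose. Gfi1, a repressor that hair cells need for survival, had 28.1, 25.6 and 23.6 TPM in the IPs and 2.06, 3.08 and 2.60 TPM in the inputs. The 3 IPs lay close together and far above the inputs, and the change was 2.91 ± 0.21 (adjusted p = 0.00509, limma). The homeobox factor Lhx3 had 16.3, 8.80 and 14.1 and 0.872, 0.114 and 1.65 TPM and changed by 2.95 ± 0.24, although its inputs varied more than its IPs in proportion. Eya1 and Rfx1 changed by 1.66 ± 0.18 and 1.80 ± 0.20. Atoh1, which starts hair cell differentiation in the embryo, was listed at 0 in all 6 libraries.

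Of 10 potassium channel and efferent synapse genes, 8 were tested, 5 rose and none fell (median 1.53). That count is near the share of all genes tested that rose, 58.1%. Besides the 4 that are also outer hair cell markers, Kcna10, a channel of hair cell membranes, had 40.8, 16 and 20.4 TPM in the IPs and 3.50, 4.79 and 3.37 TPM in the inputs and changed by 2.35 ± 0.37 (adjusted p = 0.00919, limma). All 8 were highest in IP 1. With median-of-ratios scaling 3 rose and 2 fell, and Kcna10 did not pass (adjusted p = 0.0595, limma). Without homogenate 1, 4 rose and 2 fell. Of the 5 with all 3 inputs at 1 TPM 2 rose, where 55.8% of all such genes rose.

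Calcium buffers and pumps split. Of 11 tested, 7 rose and 3 fell (median 0.75), and with median-of-ratios scaling Ocm alone rose and 3 fell. S100a1, a calcium-binding protein, had 1199.7, 1106 and 1314 TPM in the IPs and 2915, 2933 and 2927 TPM in the inputs, so that every input was more than 2 times every IP. It fell by 1.28 ± 0.16 (adjusted p = 0.00626, limma). Parvalbumin (Pvalb) had 60.4, 22.6 and 44.4 and 129.7, 72.4 and 122 TPM and fell by 1.39 ± 0.18 (adjusted p = 0.00677, limma). Its IPs and inputs followed each other by homogenate, with homogenate 2 lowest in both. Calretinin (Calb2), chosen for mention after its values were seen as the third to fall, had 119, 53.0 and 90.2 and 210.2, 133 and 212 TPM. Pvalb and Calb2 are also known from other cochlear cells, among them neurons. The plasma membrane pump Atp2b2, which clears calcium from stereocilia, changed by 1.60 ± 0.20, with 10.4, 7.92 and 8.26 TPM in the IPs and 2.21, 2.18 and 2.29 TPM in the inputs. Without homogenate 1, 5 rose and 3 fell, and without homogenate 2 or 3, 3 rose and 2 fell. The call of Calb2 was lost without homogenate 2 and without homogenate 3 (adjusted p = 0.0515 and 0.0563, limma).

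The genes used by inner hair cells and ribbon synapses lay near the median gene. Of 12 members 10 were tested, 8 rose and none fell with a median of 1.06, and 1 rose with median-of-ratios scaling. That 1 was Bsn, the active zone protein bassoon, at 7.42, 9.27 and 10.3 TPM in the IPs and 1.18, 1.25 and 1.69 TPM in the inputs (change 2.07 ± 0.20, adjusted p = 0.00526, limma). Tbx2, a factor that separates inner from outer hair cell fate and is expressed in other cochlear cells too, had 195, 392 and 328 and 70.3, 77.4 and 66.0 TPM. It was lowest in IP 1 and changed by 2.03 ± 0.24. Cacna1d, the calcium channel of the ribbon synapse, changed by 1.48 ± 0.25 and Rabgap1l by 1.15 ± 0.20. The inner hair cell glutamate transporter Slc17a8 had 6.15, 5.72 and 2.89 TPM in the IPs and 3.61, 4.01 and 4.69 TPM in the inputs, which overlapped (adjusted p = 0.659, limma). Without homogenate 1, 7 rose, and without homogenate 3, 3 rose and the call of Rabgap1l was lost (adjusted p = 0.0589, limma). Of the 6 with all 3 inputs at 1 TPM, 4 rose.

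Markers of supporting cells, the neighbours on which hair cells rest, were not depleted on the scale of deposited TPM. Of 21 tested, 10 rose and none fell (median 0.68, or -0.35 relative to the median gene), while with median-of-ratios scaling none rose and 8 fell. Without homogenate 1 the count that rose was 11, and without homogenate 2 or 3 it was 5, where Jag1 was lost without homogenate 3 (adjusted p = 0.0557, limma). None of the 22 members of the list was at 0 in all libraries. Their summed TPM ran from 3442 to 4221 in the IPs and from 2829 to 3144 in the inputs. Sox2 itself had 96.9, 98.5 and 98.8 TPM in the IPs and 70.4, 66.6 and 80.2 TPM in the inputs. Every IP was above every input, yet the change of 0.44 ± 0.15 did not pass (adjusted p = 0.0612, or 0.0212 without the homogenate block, limma). With median-of-ratios scaling it fell, at -0.78 (adjusted p = 0.0257, limma). Fgfr3, a receptor of pillar and Deiters cells, had 39.1, 68.8 and 47.8 and 15.4, 12.8 and 16.7 TPM and changed by 1.70 ± 0.27. The Notch target Hey2 had 25.9, 60.9 and 58.9 and 11.4, 9.68 and 10.0 TPM, lowest of the IPs in IP 1, and changed by 2.03 ± 0.35. Cdkn1b, which keeps supporting cells out of the cell cycle and is expressed widely, changed by 1.49 ± 0.24 and the Notch ligand Jag1 by 1.28 ± 0.21. Their part in the other results was not tested.

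The glial and neuronal lists lay lower. Of 19 Schwann cell and satellite glia genes 9 rose and 1 fell (median 0.62), and 4 fell and none rose with median-of-ratios scaling. Their sum was 4277 to 4808 TPM in the IPs and 5167 to 5585 TPM in the inputs. Erbb3, the neuregulin receptor, changed by 1.72 ± 0.17, the connexin Gjc3 by 1.76 ± 0.19, the myelin regulator Egr2 by 1.30 ± 0.16 and Sox10 by 1.21 ± 0.15. Without homogenate 1 the count that rose was 12, and without homogenate 2 or 3 it was 7. Of 14 spiral ganglion neuron genes 1 rose (2 without the homogenate block), the sodium channel Scn1a (1.12), and 1 fell, Thy1, with 118, 101 and 116 TPM in the IPs and 239, 167 and 212 TPM in the inputs. With median-of-ratios scaling none rose and 7 of the 14 fell, and without homogenate 1, 3 rose and 3 fell. Both calls were lost without homogenate 2 and without homogenate 3 (adjusted p from 0.0547 to 0.0735, limma).

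The lateral wall, blood and immune lists were lowest among the cell type lists. Of 14 stria vascularis genes 1 rose and 4 fell (median -0.30), and with median-of-ratios scaling none rose and 12 fell. Without homogenate 1, 1 rose and 5 fell. Dct, a melanin enzyme of intermediate cells, had 151, 113 and 97.6 TPM in the IPs and 249.7, 301 and 248 TPM in the inputs, and Mlana had 11.4, 4.98 and 2.51 and 24.4, 23.1 and 22.9 TPM. Neither overlapped. Bsnd, which encodes barttin, went the other way at 20.9, 73.7 and 75.7 TPM in the IPs and 10.8, 16.4 and 12.9 TPM in the inputs. The counts without homogenate 2 were 0 rising and 2 falling, and without homogenate 3 they were 0 and 0. Dct and Bsnd each lost the call in both (adjusted p from 0.0533 to 0.0625) and Mlana without homogenate 3 (adjusted p = 0.0519, limma). Of 12 fibrocyte genes 3 rose and 6 fell (median -0.54), 3 rose and 7 fell without homogenate 1, and 1 rose and 8 fell with median-of-ratios scaling. Lum, the matrix protein lumican, had 31.0, 33.8 and 28.4 and 93.6, 86.1 and 83.3 TPM, Otos had 2858, 2680.3 and 2983 and 6624, 5939.6 and 5559 TPM, and Col9a1, a cartilage collagen also made elsewhere in the cochlea, rose by 2.89. Without homogenate 2 or 3, 2 rose and 2 fell. With no filter on low values, which adds genes to the adjustment, Otos did not pass (adjusted p = 0.0751, limma).

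Of 13 genes of red cells and neutrophils 1 rose and 6 fell (median -0.90), 1 rose and 8 fell without homogenate 1, and none rose and 10 fell with median-of-ratios scaling. The neutrophil protein S100a8 had 38.6, 14.3 and 39.5 TPM in the IPs and 199, 113 and 257 TPM in the inputs, and the globin Hbb-bs had 291, 199 and 289 and 614, 580.0 and 1127 TPM. Both lay lower in every IP than in every input, and they fell by 2.64 ± 0.18 (adjusted p = 0.00509) and 1.52 ± 0.22 (adjusted p = 0.00808, limma). Without homogenate 3, or without the homogenate block, the count that fell was 3. The globin genes have near-identical copies, so reads can be shared between them. Of 9 macrophage genes tested none rose and 1 fell (3 without homogenate 1, 2 without homogenate 3, 2 without the homogenate block and 6 with median-of-ratios scaling). The gene that fell was Mpeg1, with 10.2, 15.1 and 10.2 TPM in the IPs and 34.6, 40.4 and 32.3 TPM in the inputs, while C1qb and Lyz2 did not pass. Of 11 endothelial genes 8 rose, close to the median gene (median 0.99), and none rose and 2 fell with median-of-ratios scaling. Without homogenate 1 the count that rose was 8. It fell to 1 without homogenate 2 and to 1 without homogenate 3, settings in which fewer of all genes rose too. Of 10 bone genes 4 rose (5 without homogenate 1, 1 without homogenate 2 and 1 without homogenate 3), and none rose and 3 fell with median-of-ratios scaling. In that list Sparc, which was chosen for mention after its values were seen, had 174, 2780.2 and 2501 TPM in the IPs against 249, 245 and 240.4 TPM in the inputs, so that IP 1 was below every input and IPs 2 and 3 were far above (adjusted p = 0.105, limma).

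**Figure D3:**
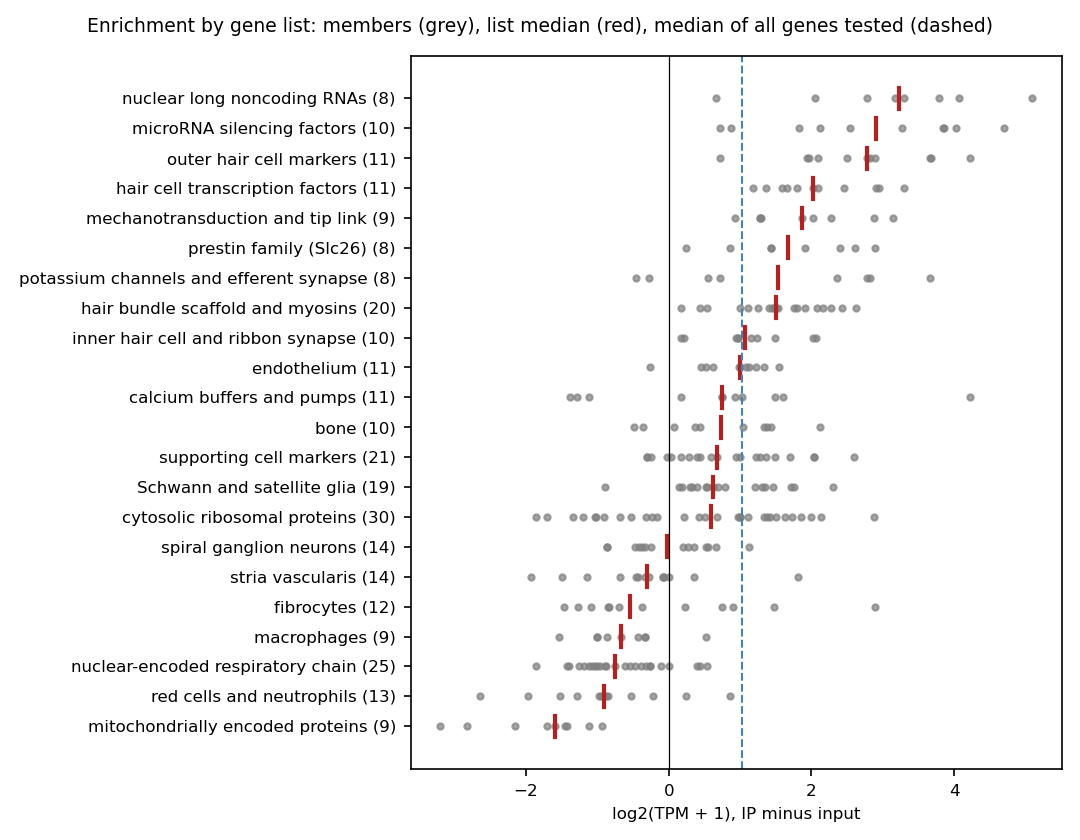
Difference of log2(TPM + 1) between IP and input (horizontal axis) of each tested member (grey points) of the 22 gene lists, with the number tested in brackets, the list median (red bar) and the median of all genes tested (dashed line at 1.03). The outer hair cell markers have a median of 2.78, and mitochondrially encoded proteins the lowest at -1.59.

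Mitochondrially encoded protein genes were the list with the lowest median. All 9 tested mitochondrially encoded protein genes fell (median -1.59), under both scalings, 8 of the 9 fell without homogenate 1 and 5 without homogenate 3. With no filter on low values 3 fell, and mt-Co1 and mt-Cytb did not pass (adjusted p = 0.0569 and 0.211, limma). The 7 with all 3 IPs at 1 TPM fell. The cytochrome oxidase subunit mt-Co1 had 12036, 7227 and 4025 TPM in the IPs and 67134, 69042 and 59017 TPM in the inputs, a fall by 3.20 ± 0.33 (adjusted p = 0.00556, limma). mt-Cytb had 13588, 20881 and 10891 and 49136, 51861 and 42182 TPM. mt-Nd3 and mt-Co2 were listed at 0 in all IPs and at 6.01, 5.99 and 6.39 and 2.67, 2.37 and 6.09 TPM in the inputs, values far below the other mitochondrial genes. Near-identical nuclear copies of mitochondrial genes exist, and the labels do not say how the counting shared reads among copies, so levels of these genes are uncertain. The nuclear-encoded respiratory chain fell too, with 16 of 25 lower and none higher (median -0.76), and 22 of 25 lower with median-of-ratios scaling. Ndufa1 had 77.9, 55.6 and 53.7 TPM in the IPs and 233, 222 and 222 TPM in the inputs, and Cox7b had 72.3, 45.1 and 62.5 and 166, 156 and 159 TPM. Neither overlapped, and they fell by 1.86 ± 0.17 (adjusted p = 0.00514) and 1.43 ± 0.18 (adjusted p = 0.00672, limma). Without homogenate 1 the count of the 25 that fell was 17, without homogenate 2 it was 4, and without homogenate 3 it was 5. Over all genes the count that fell was 693 with all homogenates, 380 without homogenate 2 and 299 without homogenate 3.

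Rpl22, whose product carries the tag in the pulled-down cells, had 115, 91.3 and 93.8 TPM in the IPs and 126, 116 and 132 TPM in the inputs and did not pass (adjusted p = 0.139, limma). The mRNA is counted here, not the tagged protein. The 30 cytosolic ribosomal protein genes split into 12 that rose, 8 that fell and 10 that did not pass (median 0.59). With median-of-ratios scaling the balance turned, with 3 that rose and 14 that fell (median -0.59). Rps14 fell by 1.86 ± 0.14 and Rpl32 by 1.71 ± 0.16, while Rpl10 changed by 1.99 ± 0.21. These genes have many processed pseudogenes that can take their reads, so their levels and the split are uncertain. Without homogenate 1, 11 rose and 9 fell, without homogenate 2, 10 rose and 4 fell, and without homogenate 3, 9 rose and 5 fell. With no filter on low values 7 rose and 7 fell.

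Nuclear long noncoding RNAs had the highest median of the 22 lists, 3.23, with 7 of 8 tested higher and none lower, 8 higher without homogenate 1, and 6 higher with median-of-ratios scaling. Malat1 rose from 2717, 2959 and 4080.3 TPM in the inputs to 73023, 44030.0 and 48286 TPM in the IPs, and Snhg11 from 46.4, 64.2 and 49.2 to 1011, 570.2 and 705 TPM. IP 1 was highest for both, and neither is a coding mRNA. Kcnq1ot1 (chr7:143203458-143296549, minus strand), which lies antisense to Kcnq1, had 84.9, 168 and 161 TPM in the IPs and 2.50, 2.37 and 4 TPM in the inputs and changed by 5.10 ± 0.26 (adjusted p = 0.00509, limma). The labels do not say whether the counting used strand, so reads of antisense genes and of the genes they overlap may be mixed. Mirg changed by 3.30 ± 0.27.

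The factors of microRNA silencing formed the list with the second highest median, 2.90, with 9 of 10 tested higher and none lower and 6 higher with median-of-ratios scaling. As for the nuclear long noncoding RNAs, the list was chosen with earlier results of these data known, so its rank carries no test. Here IP 1 was the lowest IP for 8 of the 10, where 36.8% of all genes tested were lowest in IP 1. Tnrc6a, a GW182 scaffold that recruits deadenylases to Argonaute, had 73.4, 466 and 431 TPM in the IPs and 8.17, 9.76 and 7.61 TPM in the inputs. IPs 2 and 3 lay close together and far above IP 1, which itself was far above every input. The change was 4.70 ± 0.59 (adjusted p = 0.00653, limma). Dicer1, the nuclease that makes mature microRNAs, had 51.4, 232 and 177 TPM in the IPs and 6.21, 7.56 and 7.10 TPM in the inputs and changed by 4.03 ± 0.43. The Argonaute genes Ago3, Ago4 and Ago1 changed by 2.54 ± 0.21, 2.12 ± 0.21 and 1.82 ± 0.23. Summed over the list, IPs 1, 2 and 3 held 259.8, 1189 and 1057 TPM and the inputs 51.2 to 61.2 TPM. Without homogenate 1 the median was 3.44 and 8 of 10 rose.

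Several of the largest rises over all genes were also lowest in IP 1. Under the rule for named genes, which takes the 10 largest rises and the 10 largest falls, the rises included Phxr4, Kcnq1ot1, Tnrc6a, Lmbr1l, Plagl2, Tet3, Arid3a, Ocm and Hic2. The zinc finger gene Plagl2 had 24.6, 352 and 288 TPM in the IPs and 4.81, 5.18 and 7.10 TPM in the inputs. The zinc finger repressor Hic2 had 5.33, 99.9 and 89.7 and 1.07, 1.31 and 1.08 TPM, and the methylcytosine dioxygenase Tet3 31.8, 173 and 172 and 3.96, 3.91 and 3.74 TPM. In these 3 genes IP 1 lay between the inputs and the other IPs, whereas Ocm was highest in IP 1. Hic2 changed by 4.17 ± 0.89, and its call was lost without homogenate 3 (adjusted p = 0.0557, limma). Phxr4, annotated as a transcript to be experimentally verified, had 155, 108 and 128 TPM in the IPs and 4.5, 1.16 and 1.40 TPM in the inputs, with the 3 IPs close to each other, and showed the largest change of the named genes, 5.41 ± 0.26 (adjusted p = 0.00509, limma). Lmbr1l had 73.4, 189.5 and 191 and 4.28, 7.40 and 5.36 TPM, and Arid3a, an AT-rich DNA-binding factor, 11.3, 87.2 and 90.4 and 1.16, 1.31 and 1.88 TPM.

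The largest falls by the same rule were mt-Co1, Bglap2, Cox6a2, mt-Nd3, Fam229a, S100a8, Magee2, Wfdc18, Ppbp and Efhd1os. Of these, Cox6a2, mt-Nd3, Fam229a, Magee2, Ppbp and Efhd1os had fewer than 3 IPs at 1 TPM. They were tested only because of their inputs, which favours a fall. The osteocalcin gene Bglap2, which has near-identical neighbours, had 10.2, 5.97 and 1.45 TPM in the IPs and 60.1, 33.6 and 49.8 TPM in the inputs. Cox6a2, a muscle form of a cytochrome oxidase subunit, and Fam229a were listed at 0 in all 3 IPs and at 11.8, 3.88 and 6.99 and 7.83, 3.92 and 5.79 TPM in the inputs. The secreted protein gene Wfdc18 had 21.7, 24.0 and 17.3 and 118, 132 and 118 TPM, with little spread in either group. The platelet chemokine Ppbp had 0, 3.25 and 1.35 and 17.4, 6.27 and 12.2 TPM, and its call and that of Magee2 were lost without homogenate 1 (adjusted p = 0.0799 and 0.0706) and without homogenate 3 (0.0902 and 0.0571, limma). That of Ppbp was also lost with no filter and with a pseudocount of 0.1 TPM (adjusted p = 0.0880 and 0.0716, limma).

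**Figure D4:**
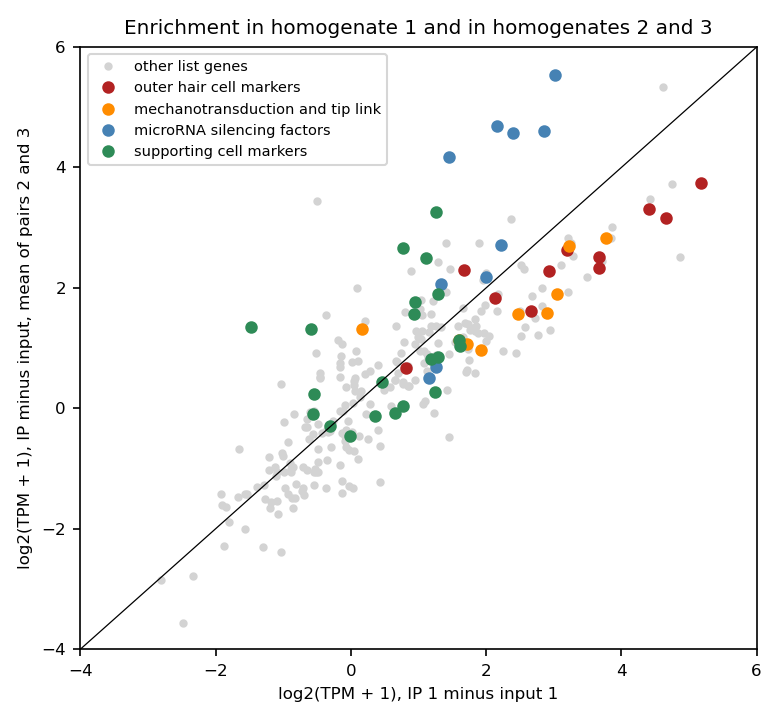
Difference of log2(TPM + 1) between IP and input in homogenate 1 (horizontal axis) and its mean in homogenates 2 and 3 (vertical axis), each point 1 gene of the 22 lists, with 4 lists in colour and the line of equal values. Outer hair cell markers lie mostly below the line (10 of 11 are highest in IP 1), and 8 of the 10 tested microRNA silencing factors are lowest in IP 1.

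The change also differed by transcript class and length. Among genes tested, the median was 1.0 for 12621 protein-coding genes, 1.47 for 201 lincRNA genes, 3.11 for 100 snoRNA genes, 3.61 for 102 microRNA genes and -0.05 for 983 processed pseudogenes. When protein-coding genes were ordered by change and divided into 10 equal groups, the lowest group had a median coding length of 694.5 bases and a median input level of 40.5 TPM. The highest group had 1642.5 bases and 4.37 TPM, and the longest median coding length, 1848 bases, was in group 8. The median GC content of the transcript was 51.6% in the lowest and 51.8% in the highest group. Short, abundant transcripts were thus lower in the IPs than long, rare ones, and length and abundance move together in this ordering. Input level enters the change itself, so that part of the order is a description only.

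The enrichment was set beside that of the Sox2 strain, each against its own inputs, to ask which genes were enriched more in the Prestin pull-down. No gene of 15361 tested passed (0% higher and 0% lower at an adjusted p under 0.05, limma with the homogenate as a block), and 3030 had an unadjusted p under 0.05. When the homogenate block was dropped, 0.918% of genes had a higher and 0.729% a lower enrichment, 253 in all. The median gene differed by 0.28 between the strains. The 2 Sox2 homogenates limit this test, and the following differences are given with 95% intervals and not as calls. The gene sets of the files differ too, with 39399 genes for the Prestin strain and 43947 for the Sox2 strain. Over the 39399 shared genes the Sox2 libraries sum to 971541 to 976070 TPM. The gene mt-Nd3, at 5.99 to 6.39 TPM in the Prestin inputs, was listed at 0 in every Sox2 library used. Whether the strains were counted alike was not tested.

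All 9 tested outer hair cell markers had a positive difference (median 1.93), and 6 of the 9 had an unadjusted p under 0.05. A positive sign alone was not particular to them. All 11 endothelial genes (median 0.65) and all 8 nuclear long noncoding RNAs (median 1.10) tested had one too, and 5 of 21 supporting cell genes. An unadjusted p under 0.05 was seen for 1 of those 11 and 4 of those 8. In the Sox2 strain Slc26a5 had 0.533 and 1.44 TPM in the 2 IPs and 1.20 and 1.5 TPM in the 2 inputs, with no rise, and the difference from the Prestin strain was 3.18 (95% interval 1.78 to 4.58, adjusted p = 0.121, limma). Ocm had 60.3 and 74.5 TPM in the Sox2 IPs and 57.3 and 49.1 TPM in their inputs, a difference of 3.88 (2.51 to 5.26, adjusted p = 0.0829). The difference was 4.04 for Strc (2.73 to 5.35, adjusted p = 0.0778). Aqp11, Kcnn2 and Ikzf2 had intervals that included 0. Beyond the markers, Lhfpl5 differed by 3.57 (2.54 to 4.60, adjusted p = 0.0741), Tomt by 2.60 (1.72 to 3.48) and Gfi1 by 3.25 (2.13 to 4.38, adjusted p = 0.082). Without the block Ocm, Strc, Chrna10, Lhfpl5, Tomt, Espn and Gfi1 passed (adjusted p from 0.0164 to 0.0483, limma).

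Supporting cell and glial genes lay on the other side. Of 21 supporting cell genes 9 had an unadjusted p under 0.05, all 9 with a lower enrichment in the Prestin strain, and so had 9 of 19 glial genes. This was not particular to those lists, as 6 of 15 spiral ganglion neuron genes and 15 of 25 nuclear-encoded respiratory chain genes did the same. Over all genes, 3030 of 15361 had an unadjusted p under 0.05 in either direction. Sox2 had 654 and 320.3 TPM in the Sox2 IPs and 63.7 and 32.5 TPM in their inputs, and the strains differed by -2.86 (-3.40 to -2.33, adjusted p = 0.0621). For the 10 tested factors of microRNA silencing the median difference was 0.36, and 2 had an unadjusted p under 0.05. Tnrc6a had 242 and 232 TPM in the Sox2 IPs and 11.2 and 8.69 TPM in their inputs, high in the IPs of both strains, and differed by 0.25 with a wide interval (-1.89 to 2.40). Dicer1 differed by 0.54 (-1.01 to 2.09). Plagl2 had 140.1 and 154 TPM in the Sox2 IPs and 6.98 and 6.89 TPM in their inputs, and Tet3 59.2 and 49.4 and 3.15 and 2.79 TPM. Kcnq1ot1 had 85.5 and 52.2 and 4.81 and 1.59 TPM there. These genes were thus listed far above input in both pull-downs, while the outer hair cell markers Slc26a5 and Ocm were so in the Prestin strain alone among these 10 libraries, a contrast that did not pass the adjusted test.

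**Figure D5:**
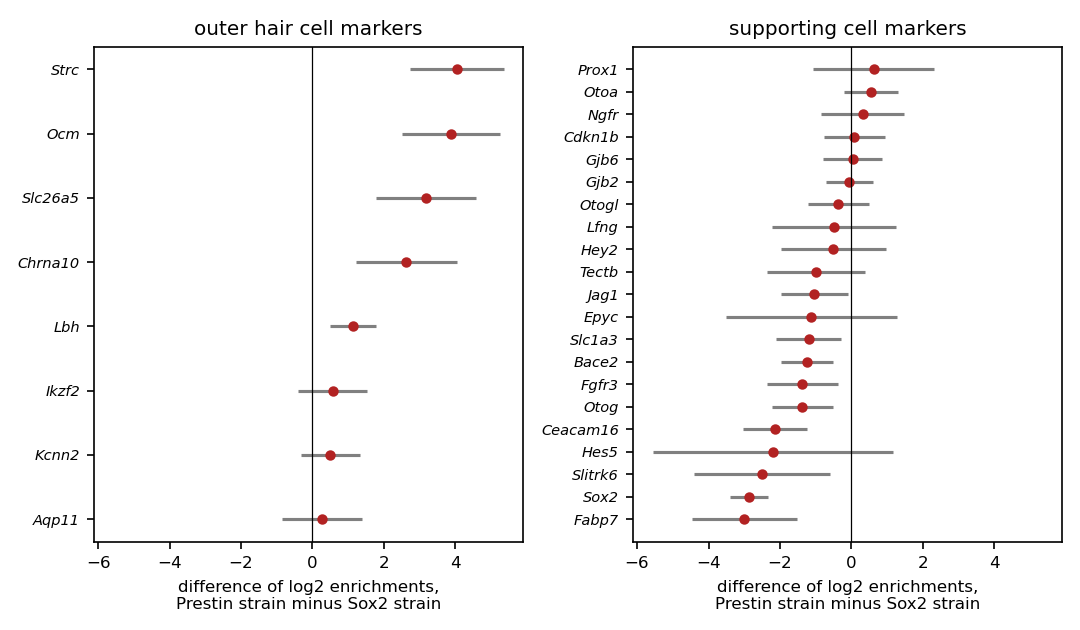
Difference of the log2 enrichments, Prestin strain minus Sox2 strain (horizontal axis), with 95% intervals (grey) for 8 of the 9 tested outer hair cell markers and for supporting cell markers. The 8 outer hair cell markers plotted are above 0, and Sox2 is among the lowest supporting cell markers.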

How the data were processed

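The submitters' processing notes name TopHat and the GRCm38 build. The deposited files give TPM per gene and library, made by the authors. No source used here gives the counting tool, annotation or use of strand. Symbols are those of the files, and positions, gene types and lengths come from GENCODE M21, which held 100% of the 39399 identifiers. TPM keep no read depth, so no counting interval was given, and precision rests on the spread of 3 homogenates.

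Tests were run with limma 3.58.1 (R 4.3.3, mean-variance trend, homogenate as a block, Benjamini-Hochberg, threshold 0.05) on log2(TPM + 1), where at least 3 of 6 libraries reached 1 TPM. This scale understates the change of low genes. The strain difference was an interaction term over 10 libraries, for genes at 1 TPM in at least 4. IP and input of a homogenate come from the same tissue. The deviation of an IP from its group mean correlated with that of its own input at r of 0.0693, 0.106 and 0.112 over genes, against at most -0.0298 for other inputs. Deviations of the 3 inputs sum to 0 for each gene, so a positive own value pushes the others below 0. The contrast with other inputs is therefore no separate evidence of pairing. Both tests were checked on simulated data with known changes, with the same filter.

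Alternatives were no block, a pseudocount of 0.1 TPM, no filter, a filter at 5 TPM, median-of-ratios scaling, rescaling without mitochondrially encoded genes and Malat1, no trend, and leaving out each homogenate. The libraries, gene lists and tests were chosen with earlier results of these data known. Named genes were the 10 largest rises and falls past the threshold (5 TPM or more in the higher group, no overlap of groups, predicted genes, numbered pseudogenes and small RNA genes left out), all outer hair cell and mechanotransduction genes, the 4 members of lowest p in each other list, and Slc26a5, Sox2 and Rpl22. Some of these genes are not reported here. Slc26a3, Slc26a4, Slc26a8, Slc26a9, Gnai3, Adgrv1, Xirp2, Myo3a, Myo3b, Atoh1, Calb2, Slc17a8 and Sparc are named outside that rule and were chosen after their values were seen. Figures were drawn with matplotlib 3.10.9.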

Additional observations from a re-analysis of the deposited data

How the results depend on the processing

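The direction of 10 of the 11 outer hair cell markers (those named above) and their side of the threshold did not change in any setting tried that tested them, except for the calls of Aqp11 and Kcnn2 given above and that of Kcnn2 with no filter (adjusted p = 0.0658) and with rescaling without mitochondrially encoded genes and Malat1 (adjusted p = 0.0582, limma). With median-of-ratios scaling 2302 genes rose and 3107 fell, since it moves the median gene by about the whole shift between IP and input. That scaling also turned the direction of Slc26a4 (-0.96), Sox2 (-0.78), Slc17a8 (-0.82), Gnai3 (-1.004), Sox10 (-0.0112) and Ush1g (-0.0315). Rescaling without mitochondrially encoded genes and Malat1 turned Gnai3 to -0.0301. Leaving out each homogenate moved Slc17a8 between -0.0640 (without homogenate 1) and 0.53. Leaving out each homogenate gave 5051 to 9099 genes higher and 299 to 874 lower, lowest without homogenate 3, with fewer samples in the fit.

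With no replicate block for the homogenate, 9326 genes rose and 748 fell in IP against input, and among the named genes Sox2 and Lyz2 came to pass. The strain difference passed for 253 genes with no replicate block, 12 with a pseudocount of 0.1 TPM and 2 with no mean-variance trend, and for 0 in the other settings and without each homogenate, with 1957 to 3665 genes at an unadjusted p under 0.05 where none passed. The cause was not tested. Of 100 named genes tested, median-of-ratios scaling ended the call of 26, each a rise that kept its direction. It also ended that of Sox10, whose direction turned (adjusted p = 0.958, limma). No filter on low values ended the call of the 5 whose values are given. Depth is unknown, so genes near 1 TPM, such as Kcnn2, and genes listed at 0 cannot be judged against counting error.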

Other observations

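A supporting cell gene and a hair cell gene were picked after their values were seen, for the order of their IPs, and carry no test here. Lfng, a modifier of Notch in supporting cells, had 25.0, 80.3 and 84.9 TPM in IPs 1, 2 and 3 and 9.86, 6.99 and 8.59 TPM in the inputs, with IP 1 far below the other IPs as for Tnrc6a. Pou4f3, the hair cell survival factor, had 414, 134 and 179.8 TPM in the IPs and 13.2, 27.7 and 25.2 TPM in the inputs, the reverse order, with IP 1 highest and input 1 lowest.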
